A study of Mus musculus with 6 samples.

Results

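The 10 basement membrane genes described here were the collagen IV chains Col4a1 and Col4a2, the collagens Col15a1 and Col18a1, the laminin chains Lama4, Lama5, Lamb2 and Lamc1, the nidogen gene Nid1 and the perlecan gene Hspg2. They were picked by symbol from the 55450 genes of the deposited table for their place in the basement membrane. All 10 were detected. Their levels were taken as CPM, the UMIs of a gene per 1000000 UMIs of the cells summed, where a UMI stands for a single captured RNA molecule. A CPM depends on how well a transcript is captured, so a gene was compared only with itself between cells.

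The cells came from mouse aortic tissue profiled with 10x Genomics droplets. The 6 samples were 3 controls with the genotype Best3FL/FL and 3 samples labelled Best3SMKO, in a series on smooth muscle and disease of the aorta. The driver of the deletion in the Best3SMKO samples, the exons removed and the mice's age were not stated in the labels. The deposited matrix pools 6 libraries that are told apart only by a barcode suffix, and no suffix could be tied to a genotype, so no knockout was compared with a control and every value below describes the pooled aortic cells or a single numbered library.

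A basement membrane is the thin sheet of matrix that lies under the endothelium and wraps each smooth muscle cell, Schwann cell and fat cell. It is built from a laminin network, which binds integrins and dystroglycan on the cell, and a cross-linked collagen IV network, which gives it strength. Nidogen and perlecan join these networks, and collagens XV and XVIII sit at its outer face. In the arterial wall it separates endothelium from muscle and surrounds the muscle cells between the elastic layers.

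Collagen IV genes lie head to head in pairs, and the sequence between the starts of such a pair is shown because both genes of a pair are followed below. Col4a1 (ENSMUSG00000031502, chr8:11198423-11312826, minus strand) and Col4a2 (ENSMUSG00000031503, chr8:11312805-11449287, plus strand) are protein-coding, and their annotated first bases overlap by 22 bases (GRCm38, GENCODE M21). Col4a4 and Col4a3 are arranged in the same way with 71 bases between their starts. The sequences are from RefSeq (GRCm38.p6, plus strand, 5′ to 3′), and capitals mark the GC box motif GGGCGG, searched on both strands.
Col4a1 and Col4a2 overlap, chr8:11312805-11312826: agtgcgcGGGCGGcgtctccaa
Col4a4 to Col4a3 gap, chr1:82586850-82586920: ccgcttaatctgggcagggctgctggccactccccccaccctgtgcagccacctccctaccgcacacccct
The overlap of Col4a1 and Col4a2 holds a GC box and the gap of the other pair holds none. In windows of 300 bases around RefSeq gene starts, 250 before and 50 after, GGGCGG was found for 6 and CCAAT for 4 of the 8 members that have a window. Of all 32851 windows, 35.7% held GGGCGG and 37.4% held CCAAT on either strand. The motifs can share letters where they adjoin. The windows of Col4a1 and Col4a2 overlap and so can hold the same match. The GC box shown above lies in both windows and is the only GGGCGG in the Col4a1 window. Col18a1 was counted if any of its windows held a match. These matches describe the sequence only.

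The libraries held 7475 to 16269 barcodes and 51813179 to 96144873 UMIs. After filtering, 50514 cells remained, whose median depth ranged over libraries from 4658 UMIs (library 5) to 7733 UMIs (library 3). Any pair of libraries shared 14 to 51 barcode sequences, at most 0.548% of the smaller library. Library 5 stood apart with 12.1% called doublets, against 3.2% to 4.9% elsewhere. The deleted gene Best3 had 26 UMIs in all barcodes, too few to check a label. The 10 members together made up 2251 to 2807 CPM of the kept cells of a library. Immediate early genes, which rise during tissue dissociation, summed to 7565 to 10189 CPM per library, and their part in the members' levels was not tested.

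Clusters were built without the members among the variable genes and were named from marker lists, which gave 10 named classes. The wall cells were 15942 fibroblast-like, 13748 smooth muscle cell-like, 8346 endothelial cell-like, 1533 lymphatic endothelial cell-like and 412 pericyte-like cells. Beside them stood 1738 Schwann cell-like and 325 epithelial cell-like cells, and among leukocytes 3251 macrophage-like, 494 B cell-like and 920 T cell-like cells. The tissue label fits the markers, since all 9 smooth muscle markers were present in the smooth muscle cell-like class, at a summed 54262 CPM against 2048 CPM in fibroblast-like cells. The pericyte-like class carried smooth muscle markers too, at a summed 38437 CPM. Pericyte markers set it only a little apart, at a summed 3975 CPM (libraries 3333 to 4778) against 3055 CPM in smooth muscle cell-like cells. In droplets, free RNA gives UMIs in cells that do not make a transcript. Macrophage-, T cell- and B cell-like cells served as the background for it, at median depths of 5126, 3458.5 and 3214.5 UMIs, against 10479 UMIs in smooth muscle cell-like and 6452.5 UMIs in fibroblast-like cells.

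The members had no common source. Smooth muscle cell-like cells held the highest pooled CPM of 6 members (Col4a1, Col4a2, Col18a1, Lama5, Lamb2 and Hspg2), while 9.96% of all 6779 genes reaching 50 CPM in a class were highest there. Fibroblast-like cells were highest for Col15a1, Lamc1 and Nid1, for which the share of all genes was 8.05%. Lymphatic endothelial cell-like cells were highest for Lama4, against 9.37% of all genes. To lead in a class, a gene needed a CPM of 2 times or more that of each other class (with 200 cells or more), and the top value there in each library holding 20 or more of those cells. By this rule 2 of the 10 members led, Col18a1 in smooth muscle cell-like and Nid1 in fibroblast-like cells, where 23.3% of all genes led in some class. The median ratio of the highest to the next class was 1.12 for the members and 1.33 for all genes. Lama4 at a ratio of 1.97 and Col15a1 at 1.95 fell just short, and with library 3 left out the Lama4 ratio was 2.09, so that it led too. With 1 matrix and no groups these are rules of size, not tests.

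**Figure D1:**
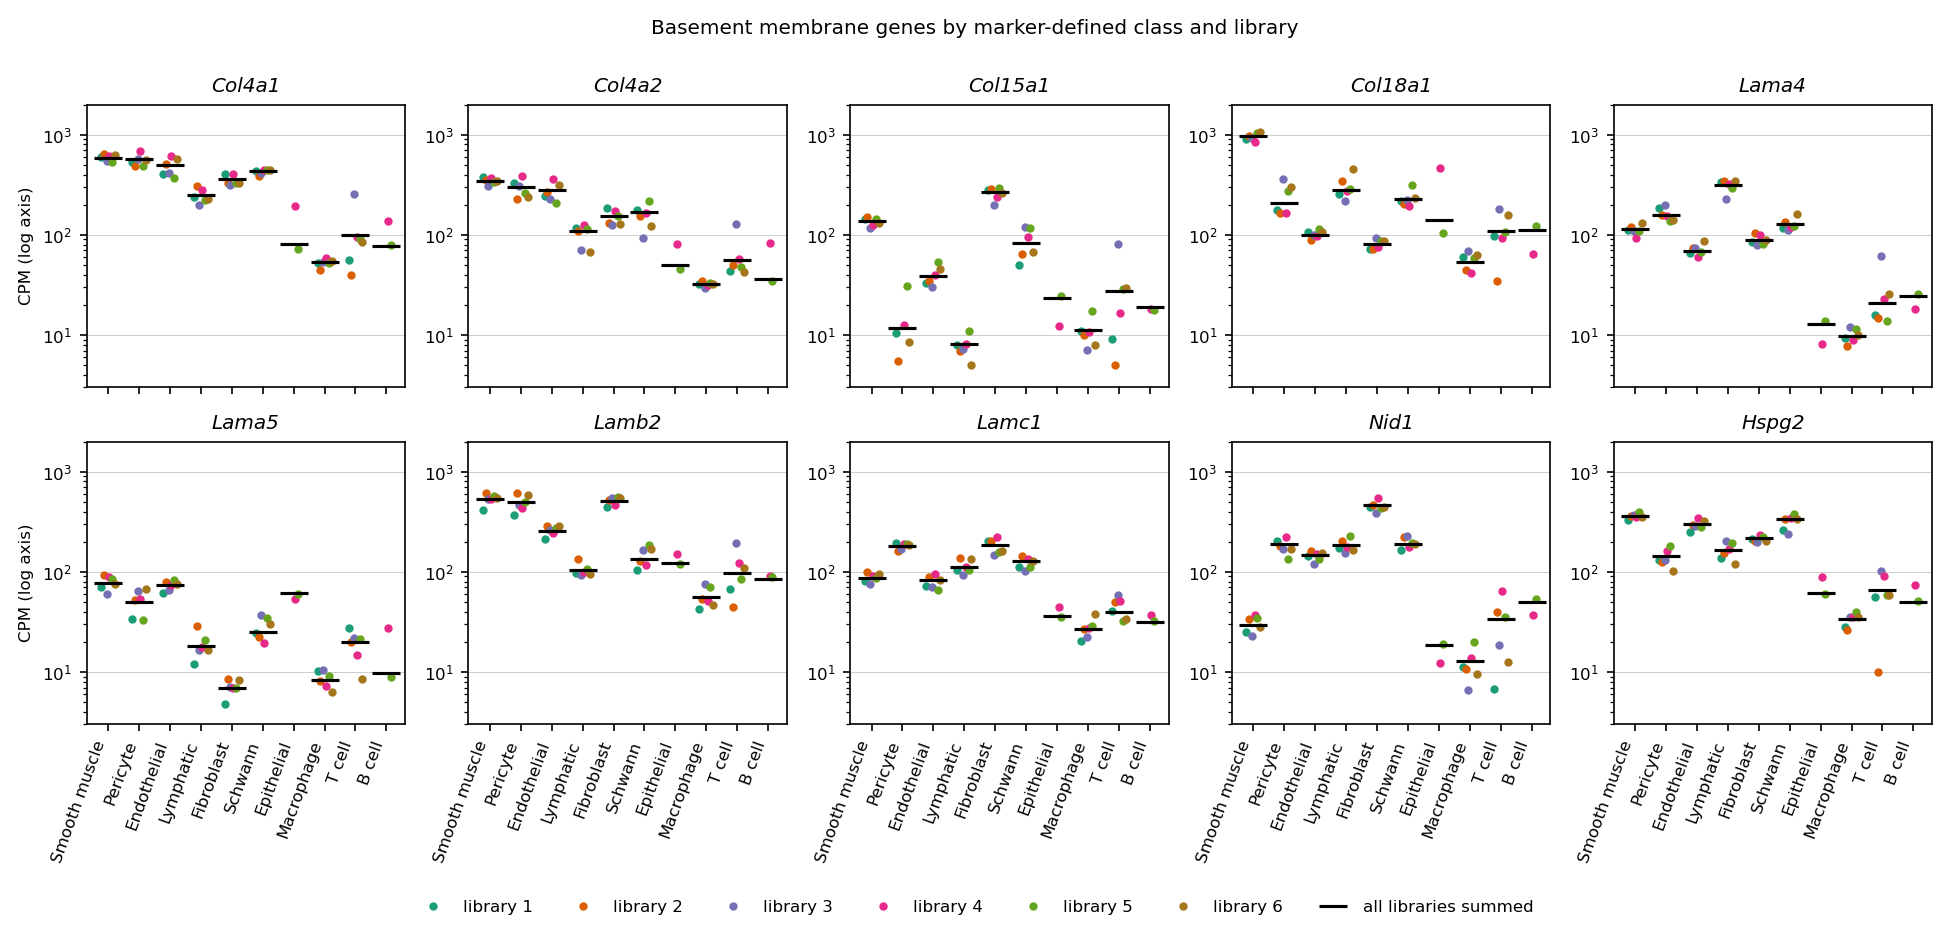
CPM (log axis) of each of the 10 genes in the 10 named classes. Points are libraries with at least 20 cells of the class, black bars are all libraries summed, and the single library with no Col15a1 UMI in the pericyte-like class is not drawn. Col18a1 stands at 969 CPM in smooth muscle cell-like cells with every library above all other classes, and Nid1 at 461 CPM in fibroblast-like cells.

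Col4a1 and Col4a2 encode the chains of the collagen IV trimer found in nearly all basement membranes. In smooth muscle cell-like cells Col4a1 was measured at 592 CPM (95% Poisson interval 588 to 596), and the 6 libraries ran from 531 through a median of 612 to 640 CPM. Pericyte-like cells followed at 567 CPM (libraries 490, 546 and 695 as lowest, median and highest). Endothelial cell-like cells came next at 496 CPM (371, 459 and 609). The libraries of these 3 classes overlapped. Schwann cell-like cells at 430 CPM (388, 440 and 446) overlapped the endothelial ones but not the smooth muscle or pericyte-like ones. Fibroblast-like cells held 360 CPM (314, 331 and 406), and every one of their libraries lay above every library of lymphatic endothelial cell-like cells, which stood at 252 CPM (199, 231 and 305). The order of smooth muscle cell-like over pericyte-like cells held in 4 of 6 libraries only, and a ratio of 1.04 left it unsettled. Of all Col4a1 UMIs of the kept cells, smooth muscle cell-like cells held 52.8% and fibroblast-like cells 24.3%.

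Col4a2 followed the same order of classes. Its level was 348 CPM in smooth muscle cell-like cells (libraries 309, 348 and 382 as lowest, median and highest). In pericyte-like cells it was 299 CPM (226, 285 and 384), and in endothelial cell-like cells 283 CPM (206, 255 and 364). These ranges overlapped, although smooth muscle cell-like cells were highest in 5 of 6 libraries. Fibroblast-like cells held 155 CPM (126, 142 and 185), less than any smooth muscle cell-like library. The background was 32.2 CPM in macrophage-like, 55.7 CPM in T cell-like and 36.5 CPM in B cell-like cells. A Col4a1 UMI was seen in 93.2% of smooth muscle cell-like cells (exact 95% interval 92.8 to 93.7) and in 21.7% of macrophage-like cells (20.2 to 23.1). After every cell was thinned to 2000 UMIs and shallower cells were left out (672 and 457 cells), the shares were 64.7% and 9.23%.

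Col15a1 and Col18a1 encode the multiplexins, collagens with glycosaminoglycan chains whose C-terminal ends are released as restin-like and endostatin fragments. Col18a1 (ENSMUSG00000001435, chr10:77052178-77166548, minus strand) showed the widest gap between classes among the members. It reached 969 CPM in smooth muscle cell-like cells (964 to 974), with libraries at a lowest of 854, a median of 945 and a highest of 1060 CPM. Lymphatic endothelial cell-like cells came next at 283 CPM (220, 279 and 454). No library of any other class reached the smooth muscle range, and the pooled ratio was 3.42. Schwann cell-like cells held 227 CPM and pericyte-like cells 208 CPM, both in overlap with the lymphatic values. Endothelial cell-like cells held 101 CPM (88.7, 103 and 114). The background classes did not give 1 level, with 109 CPM in T cell-like and 112 CPM in B cell-like cells, but 53.3 CPM in macrophage-like cells (41.2, 59.4 and 68.9), below every endothelial library. At 2000 UMIs per cell a Col18a1 UMI was found in 14.1% of endothelial cell-like, 11.6% of T cell-like and 9.02% of macrophage-like cells. Of all Col18a1 UMIs, 84.1% were in smooth muscle cell-like cells. At 2000 UMIs per cell, 78.5% of these cells held a Col18a1 UMI, against the 9.02% of macrophage-like cells.

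Col15a1 (ENSMUSG00000028339, chr4:47208161-47313167, plus strand) peaked in fibroblast-like cells, with 265 CPM (262 to 268). Its libraries there ran from 197 through 273 to 297 CPM. Smooth muscle cell-like cells were the next class at 136 CPM, with libraries from 118 through 138 to 149 CPM. The 2 ranges did not overlap, and the ratio was 1.95. Schwann cell-like cells held 82.6 CPM, between 49.8 and 120 CPM in single libraries. In pericyte-like cells (11.8 CPM) and lymphatic endothelium (8.06 CPM) the gene was close to the macrophage-like background of 11.2 CPM. Smooth muscle cell-like and pericyte-like cells, which carried collagen IV at similar levels, thus stood 136 to 11.8 CPM apart in Col15a1. Shares of cells gave another order, with a UMI in 52.9% of smooth muscle cell-like and 49.2% of fibroblast-like cells, but at 2000 UMIs per cell these shares were 20.1% and 30.02%.

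Laminins are trimers of an alpha, a beta and a gamma chain, and the alpha chain sets which receptors bind. Lama4 (ENSMUSG00000019846, chr10:38965515-39110188, plus strand) encodes the alpha-4 chain, known from endothelium of all vessel types. It was highest in lymphatic endothelial cell-like cells at 314 CPM (303 to 325), with libraries at a lowest of 226, a median of 330 and a highest of 348 CPM. Pericyte-like cells followed at 159 CPM (136, 156 and 201). The lymphatic libraries lay above all others in each of 6 libraries. Smooth muscle cell-like cells at 114 CPM and fibroblast-like cells at 89.6 CPM overlapped, and blood endothelial cell-like cells were lower still at 69.7 CPM (60.2, 70.8 and 86.7). All of these were above the macrophage-like background of 9.72 CPM.

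Lama5 (ENSMUSG00000015647, chr2:180176373-180225859, minus strand) encodes the alpha-5 chain, the other alpha chain of endothelial basement membranes. Its level was 78.1 CPM in smooth muscle cell-like cells (libraries 60.1, 80.8 and 92.9 as lowest, median and highest). Endothelial cell-like cells held 73.3 CPM (62.1, 74.4 and 83.8), and these ranges overlapped. Epithelial cell-like cells held 61.3 CPM, from 2 libraries only. Fibroblast-like cells stood at 6.87 CPM (4.75, 6.96 and 8.51), below the macrophage-like 8.41 CPM and so at the background. Lama5 and Lama4 therefore went different ways in blood and lymphatic endothelium. Lymphatic endothelial cell-like cells held the highest Lama4 but 18.4 CPM of Lama5, less in every library than any blood endothelial library. That was close to the T cell-like 20.1 CPM and above the macrophage-like 8.41 CPM.

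Lamb2 (ENSMUSG00000052911, chr9:108479736-108490530, plus strand) encodes the beta-2 chain, known from the walls of arteries. Smooth muscle cell-like cells held 533 CPM (419, 541 and 611 as lowest, median and highest library), fibroblast-like cells 507 CPM (446, 534 and 559) and pericyte-like cells 497 CPM (374, 479 and 611). These 3 could not be ordered, and smooth muscle cell-like cells were highest in 2 of 6 libraries. Endothelial cell-like cells lay below all 3 at 259 CPM (212, 269 and 290). Schwann cell-like cells held 136 CPM and lymphatic endothelial cell-like cells 104 CPM. The lymphatic value was within reach of the T cell-like 98.5 CPM and above the macrophage-like 56.2 CPM.

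Lamc1 (ENSMUSG00000026478, chr1:153218922-153332786, minus strand) encodes the gamma-1 chain, which most laminins share. Fibroblast-like cells held 188 CPM (148, 182 and 224 as lowest, median and highest library). Pericyte-like cells held 181 CPM (163, 188 and 192), and the order between these classes turned under 4 of the alternatives tried. Smooth muscle cell-like cells at 87.9 CPM (76.6, 89.1 and 101) and endothelial cell-like cells at 82.2 CPM (65.2, 77.7 and 95.8) overlapped, and both stood above the macrophage-like 27.1 CPM.

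Nid1 (ENSMUSG00000005397, chr13:13437551-13512269, plus strand) encodes nidogen 1, which bridges laminin and collagen IV. It peaked in fibroblast-like cells with 461 CPM (457 to 465), and the libraries there ran from 385 through 446 to 550 CPM. Schwann cell-like cells followed with 191 CPM (165, 193 and 231). Pericyte-like and lymphatic endothelial cell-like cells were close to that, with 188 and 184 CPM, and blood endothelium was at 146 CPM (121, 146 and 163). No library of these classes reached the fibroblast range, and the ratio to the next class was 2.41. Smooth muscle cell-like cells, at the top for 6 other members, held 29.8 CPM of Nid1 (23.2, 31.0 and 37.4). That lay between the background classes, at 12.8 CPM in macrophage-like, 34.2 CPM in T cell-like and 49.9 CPM in B cell-like cells. Every smooth muscle cell-like library was above every macrophage-like one (6.57 to 19.9 CPM). Whether smooth muscle cell-like cells make Nid1 was not tested. Fibroblast-like cells held 73.4% of all Nid1 UMIs. At 2000 UMIs per cell 51.7% of them had a Nid1 UMI, against 5.64% of smooth muscle cell-like, 2.51% of macrophage-like and 9.94% of B cell-like cells.

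Hspg2 (ENSMUSG00000028763, chr4:137468769-137570630, plus strand) encodes perlecan, the large heparan sulphate proteoglycan that stores growth factors in the basement membrane. Its level was 361 CPM in smooth muscle cell-like cells (331, 359 and 392 as lowest, median and highest library). Schwann cell-like cells held 334 CPM (240, 337 and 378) and endothelial cell-like cells 302 CPM (252, 292 and 344). These ranges overlapped, although smooth muscle cell-like cells were highest in 6 of 6 libraries. Fibroblast-like cells stood at 216 CPM (199, 208 and 236), below all endothelial libraries. Pericyte-like cells stood at 143 CPM (101, 131 and 182), and lymphatic endothelium was at 166 CPM. Unlike for Col4a1, the pericyte-like libraries of Hspg2 all lay below the smooth muscle cell-like ones.

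Likeness between genes was described by Pearson's r of log2(CPM + 1) over 52 class-by-library values, which share libraries, depth and free RNA. Among 6779 genes, the gene most like Col4a1 was Col4a2, with r = 0.952, and the gene most like Col4a2 was Col4a1. Col4a1 was followed by Syde1 and Fermt2, both at 0.948, and Col4a2 by Gnb4 at 0.909 and Cpe at 0.906. Hspg2 was most like Col4a1, at 0.904, ahead of Cd200 at 0.893 and Ccser2 at 0.882. Another pair of members was Nid1 and Lamc1, at r = 0.858, which put Lamc1 at rank 8 for Nid1. Nid1 and Col18a1, the 2 genes that led, had r = 0.023.

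The remaining members were most like genes outside the 10. Col18a1 came next to Smtn, a smooth muscle marker encoding smoothelin, at 0.921, then Thsd4 at 0.901 and Pcdh7 at 0.849. For Lama5 the nearest was Bcam, which encodes a receptor for the alpha-5 chain, at 0.860, then Actn4 at 0.840 and Tspan2 at 0.827. Lamb2 was nearest to Igfbp7 at 0.939, Bgn at 0.916 and Cped1 at 0.913. Lama4 came next to Prss23 at 0.921, Mpdz at 0.918 and Adamts1 at 0.915. Col15a1 was nearest to Ltbp2 at 0.857, Fam198b at 0.846 and Plxdc2 at 0.828. For Lamc1 the nearest were Nr2f2 at 0.898, Ryk at 0.895 and Mpdz at 0.895, and for Nid1 they were Akap12 at 0.903, Tgfbr3 at 0.897 and Ndn at 0.882.

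Within the smooth muscle cell-like class, 3 of the 10 members differed between its clusters, as did 11.3% of 3492 genes of at least 50 CPM on either side. Cluster 0 (11836 cells, median depth 10737.5 UMIs) was led by genes such as Itga8 and Npnt, and cluster 7 (1912 cells, 8387.5 UMIs) by Pln, Des and Notch3. A gene differed where a cluster's CPM was 2 times that of the rest of its class or more, or the reverse, and no library with 20 cells or more on either side went the other way. Lama5 was higher in cluster 7, at 149 CPM (libraries 113, 143 and 174 as lowest, median and highest) against 68.8 CPM (57.7, 67.1 and 80.0) in cluster 0. Nid1 was higher too, at 71.2 CPM (61.7, 73.3 and 76.5) against 24.4 CPM (20.2, 25.3 and 29.1), which puts cluster 7 above the B cell-like background of 49.9 CPM and cluster 0 below it. The library ranges of the clusters did not overlap for either gene. Of all genes tested, 6.87% were higher in cluster 7.

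Col15a1 went the other way, with 45.6 CPM in cluster 7 (37.9, 47.3 and 51.2) against 148 CPM in cluster 0 (122, 156 and 172), a direction shared by 4.47% of all genes. Again no library of one cluster reached the other. Col4a1 and Col4a2 stayed inside the factor of 2, at 808 against 563 CPM and 528 against 324 CPM. Their libraries nevertheless lay apart, with a lowest of 616 CPM for Col4a1 in cluster 7 above a highest of 607 CPM in cluster 0, and 365 above 355 CPM for Col4a2. Col18a1 was alike in both, at 940 and 973 CPM with overlapping libraries. Smooth muscle markers summed to 53321 CPM in cluster 7 and 54385 CPM in cluster 0, and all 8 pericyte markers, present in both, to 3515 CPM (libraries 2621 to 4736) and 2995 CPM (1491 to 4811). Fibroblast markers summed to 431 CPM in cluster 7 (298 to 505) and 280.3 CPM in cluster 0 (164 to 399), and endothelial markers to 193 CPM (139 to 239) and 104 CPM (70.4 to 174). Their part in the Nid1 and Lama5 values was not tested. The pericyte-like cells themselves held 188 CPM of Nid1 and 49.5 CPM of Lama5, the latter less than cluster 7.

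Blood endothelial cell-like cells held 3 clusters, and 7 of the 10 members differed in at least 1 of them, as did 26.4% of 4299 genes. The median depths of clusters 4, 5 and 6 were 3223, 4864 and 5323 UMIs. Cluster 4 (3078 cells, led by Gpihbp1 and Car4) held the capillary markers at a summed 13314 CPM. Cluster 5 (3059 cells, led by Gja5 and Bmx) held the arterial markers at 2005 CPM, and cluster 6 (2209 cells, led by Selp and Ackr1) the venous markers at 4933 CPM. Col4a1 stood at 1085 CPM in cluster 4, with libraries from 783 through 1113 to 1221 CPM. It stood at 299 CPM in cluster 5 (251, 285 and 340) and at 170 CPM in cluster 6 (117, 158 and 238). Every library of cluster 4 lay above every library of the other clusters, and cluster 4 was also above the smooth muscle cell-like and pericyte-like classes. Col4a2 followed, at 678 CPM in cluster 4 (521, 678 and 751), 119 CPM in cluster 5 (96.9, 110 and 148) and 106 CPM in cluster 6 (66.3, 97.4 and 164).

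Cluster 4 was higher than the rest of the class for 4 members, Col4a1, Col4a2, Lamc1 and Hspg2, and 10.2% of 4059 genes were higher there. No member was lower, where 10.3% of genes were. Lamc1 stood at 129 CPM (102, 116 and 150) against 62.0 CPM in the rest. Hspg2 stood at 466 CPM (371, 489 and 497) against 232 CPM. These 2 sat just inside the factor, at ratios of 2.08 and 2.01. Without library 4 neither passed, and without library 2 Hspg2 did not, which left 5 and 6 members in the endothelial count. With doublets kept neither passed, and the count was 5. Hspg2 also fell short with a minimum of 200 genes per cell or at most 10% mitochondrial counts, and Lamc1 by the median over libraries. Lama4 in cluster 4 was just outside, at 103 against 55.4 CPM. Pericyte markers summed to 331 CPM in cluster 4 (libraries 217 to 427), 172 CPM in cluster 5 (107 to 290) and 145 CPM in cluster 6 (93.0 to 231), with a UMI of all 8 markers in each and 3 of 8 at 10 CPM or more. The pericyte-like class, where they summed to 3975 CPM, held 567 CPM of Col4a1. The part of these markers in the members' values was not tested.

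Cluster 5, with the arterial markers, was lower than the rest for 5 members, where 9.28% of 3985 genes were lower. Beside Col4a1 and Col4a2 these were Col15a1, Lama4 and Nid1. Col15a1 was measured at 7.79 CPM (4.93, 7.45 and 10.5), under the macrophage-like background of 11.2 CPM, against 60.1 CPM in the rest. Lama4 was 29.7 CPM (24.5, 29.3 and 35.2) against 96.5 CPM, and Nid1 68.9 CPM (51.0, 68.7 and 79.7) against 198 CPM. Lama5 held 83.1 CPM in cluster 5, 77.9 CPM in cluster 4 and 55.5 CPM in cluster 6, none of them past the factor, although it did differ between endothelial clusters rebuilt with a minimum of 1000 genes per cell or at a resolution of 1.0. Lamb2 was 324 CPM in cluster 5 against 215 CPM in the rest, also within it. No member was higher in cluster 5, where 8.23% of genes were.

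Cluster 6, with the venous markers, was higher for 1 member, Col15a1, at 83.1 CPM (67.0, 77.7 and 107) against 20.4 CPM, where 5.31% of 3862 genes were higher. It was lower for Col4a1 and Col4a2, where 6.91% of genes were lower. The ratio of 4.07 for Col15a1 held in all 6 libraries. In cluster 4 Col15a1 stood at 37.3 CPM, between the other clusters.

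**Figure D2:**
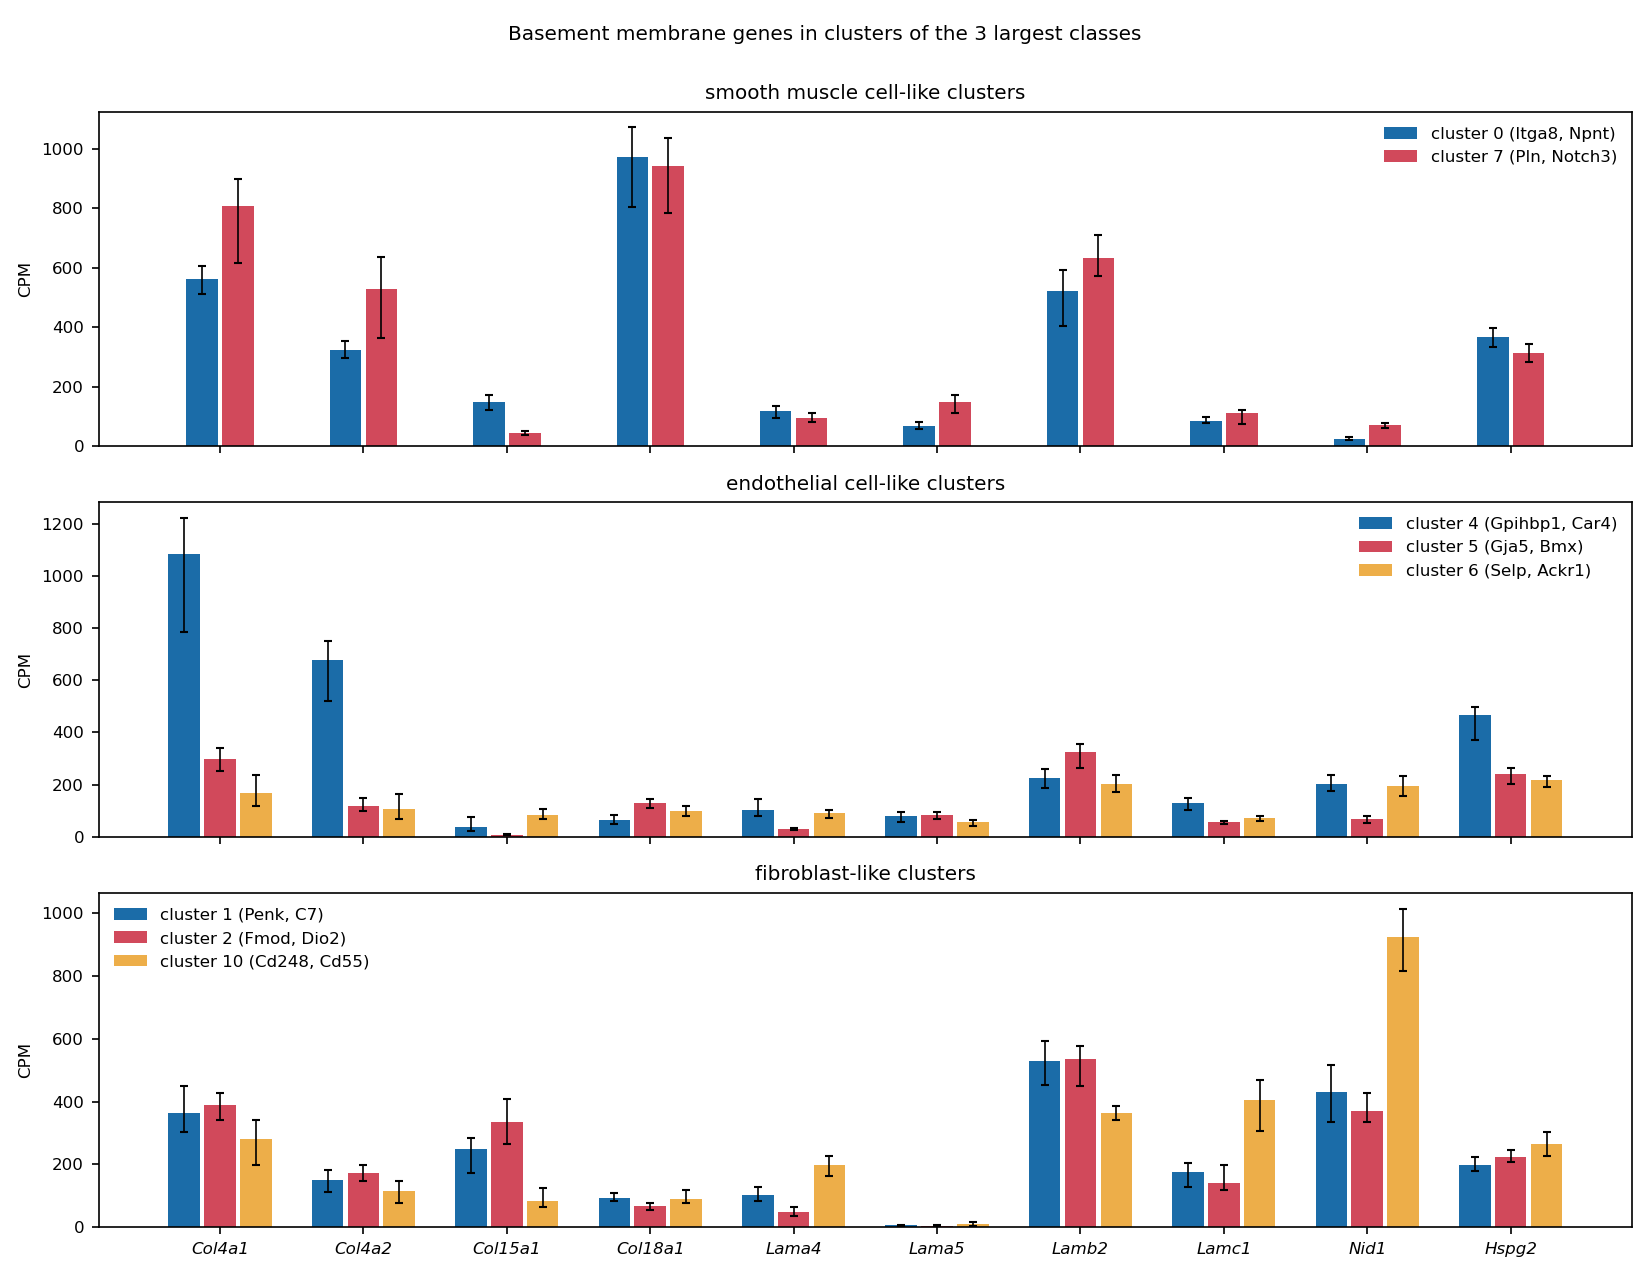
CPM (linear axis from 0) of the 10 genes in the clusters of the smooth muscle cell-like, endothelial cell-like and fibroblast-like classes, each cluster named with 2 of its leading genes. Bars are all libraries summed and whiskers span the lowest to the highest library with at least 20 cells. Cluster 19, from a single library, is not drawn. Col4a1 and Col4a2 are highest in endothelial cluster 4 (1085 and 678 CPM), and Nid1 in fibroblast-like cluster 10 (922 CPM).

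Among fibroblast-like cells, 7 of the 10 members differed in at least 1 of 4 clusters, as did 23.1% of 4263 genes. Without the smallest cluster 4 members differed, as did 13.1% of 3828 genes. Cluster 10 (1319 cells, led by genes such as Cd248 and Cd55, median depth 9887 UMIs against 4598 in cluster 1 and 7460.5 in cluster 2) was higher for Nid1, Lamc1 and Lama4, where 5.74% of 3696 genes were higher. Nid1 stood at 922 CPM there (libraries 816, 872 and 1013) against 393 CPM in the rest. Lamc1 stood at 406 CPM (307, 364 and 469) against 156 CPM, and Lama4 at 198 CPM (164, 194 and 228) against 73.8 CPM. No library of clusters 1 or 2 reached these ranges for any of the 3 genes. Endothelial markers summed to 268 CPM in cluster 10 (103 to 419.6), 99.6 CPM in cluster 1 and 123 CPM in cluster 2, with 9, 3 and 3 of 9 at 10 CPM or more. Lymphatic endothelial markers summed to 201 CPM in cluster 10 (142 to 263), 110.3 CPM in cluster 1 and 87.7 CPM in cluster 2, with 2 of 6 at 10 CPM or more in each. Their part in the Nid1, Lamc1 and Lama4 values was not tested. Col15a1 was lower in cluster 10, at 83.9 CPM (66.4, 72.5 and 125) against 292 CPM, where 5.55% of genes were lower. It was not past the factor with doublets kept or with a minimum of 1000 genes per cell.

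Cluster 2 (6412 cells, led by Fmod and Dio2) was lower for Lama4, at 47.5 CPM (36.2, 47.0 and 66.3) against 124 CPM, where 2.71% of 3539 genes were lower. Its Col15a1 was 335 CPM (265, 310 and 409), 1.60 times the rest and within the factor, and no member was higher in cluster 2, where 2.18% of genes were. Cluster 1 (8017 cells, led by Penk and C7) had no member past the factor, where 1.31% of 3517 genes were higher and 1.73% lower. Cluster 19 (194 cells, led by Tbx20), of which 193 cells came from library 2, was lower for Col4a1, Col4a2, Col18a1, Lama4, Lamc1 and Nid1, where 8.54% of 3958 genes were lower. Its Nid1 was 113 CPM against 468 CPM in the rest, and no member was higher there, where 9.17% of genes were. With a single library behind it, this cluster cannot be told apart from that library, and without library 2 the fibroblast-like count was 4. All 8 fibroblast markers were present in clusters 1, 2 and 10, at summed levels of 28984, 24770 and 23180 CPM.

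In the Schwann cell-like class 1 member differed between its clusters, as did 21.4% of 4280 genes. Lama4 stood at 176 CPM in cluster 15 (656 cells, led by Fabp7 and Chl1; libraries 164, 175 and 224) against 86.0 CPM in cluster 12 (1082 cells; 37.9, 78.2 and 132), and 12.8% of genes were higher in cluster 15. No member was lower there, where 8.67% of genes were. The 5 libraries with at least 20 cells of each did not overlap. All 9 smooth muscle markers were present in both, at a summed 3578 CPM in cluster 15 (1802 to 11281) and 7382 CPM in cluster 12 (2580 to 12478). Endothelial markers summed to 125 CPM in cluster 15 (80.4 to 169) and 602 CPM in cluster 12 (63.2 to 1896), and fibroblast markers to 972 CPM (264 to 1419) and 2049 CPM (1014 to 7701). The part of these markers in the members' values was not tested. Col4a1, at 444 and 418 CPM, and Hspg2, at 343 and 326 CPM, overlapped between the clusters.

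The ratio of Col4a1 to Col4a2 UMIs differed between cells, although it is not a ratio of molecules, since the transcripts may be captured unequally. It was 1.70 in smooth muscle cell-like cells (95% interval 1.68 to 1.72), with libraries from 1.58 to 1.83. In fibroblast-like cells it was 2.32 (2.28 to 2.37), with libraries from 2.13 to 2.57, so the libraries of these classes did not overlap. Endothelial cell-like cells split again. Cluster 5 with the arterial markers had a ratio of 2.52 (libraries 2.30 to 2.64), while cluster 4 had 1.60 (1.503 to 1.68) and cluster 6 had 1.60 (1.33 to 2.07). Pericyte-like cells stood at 1.90 (1.60 to 2.33) and lymphatic endothelial cell-like cells at 2.31 (1.94 to 2.84, 5 libraries). The macrophage-like background gave 1.66 (1.30 to 1.87), and how much of it was free RNA was not tested.

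**Figure D3:**
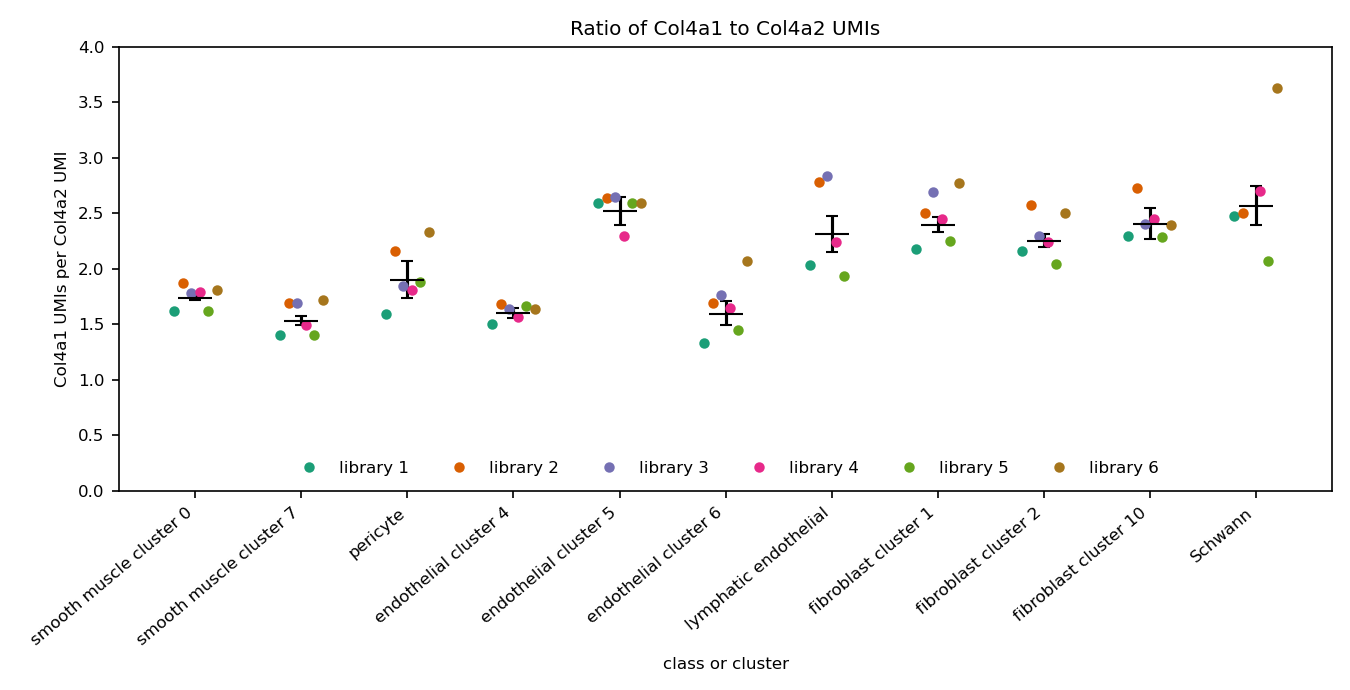
Col4a1 UMIs per Col4a2 UMI by class or cluster (linear axis from 0). Points are libraries with at least 50 UMIs of each gene, bars are all libraries summed, and error bars are 95% intervals for counting error. Endothelial cluster 5 (2.52) lies with the fibroblast-like clusters, above endothelial clusters 4 and 6 (1.60 each).

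The other 4 collagen IV genes form trimers that differ from the Col4a1 and Col4a2 one, and none of them followed the same full order of classes. Col4a5 and Col4a6, a head-to-head pair on the X chromosome with 1308 bases between their starts, were highest in smooth muscle cell-like cells at 169 CPM (libraries 146, 160 and 199) and 86.5 CPM (69.2, 85.1 and 106). Endothelial cell-like cells held 14.5 and 5.73 CPM of them, at the macrophage-like 9.60 and 5.11 CPM or little above. None of the 4 led, and 3 of them reached 50 CPM in a class. Col4a4 and Col4a3, outside the rule for named genes and chosen after their values were seen, had their top class in fibroblast-like cells, with 86.2 and 22.6 CPM. Col4a3 shares 563 exonic bases with the opposite-strand gene C430014B12Rik, which had 436 UMIs. In endothelial cluster 5 they stood at 128 CPM (libraries 116 to 138) and 39.1 CPM (28.3 to 47.1), against 2.71 and 2.09 CPM in cluster 4, which had the highest Col4a1. Fibroblast markers summed to 736 CPM in cluster 5 and 411 CPM in cluster 4, and the fibroblast-like cluster with the most Col4a4, cluster 2, held 123 CPM (111 to 145). The part of these markers in the Col4a4 and Col4a3 values was not tested. Over the 52 class-by-library values r was 0.826 for Col4a4 with Col4a3 and 0.918 for Col4a6 with Col4a5.

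The other laminin chains put partners beside the members. Of 7, 4 reached 50 CPM and 2 led. Lama2, the alpha-2 chain of muscle and nerve, led in fibroblast-like cells at 265 CPM (227, 267 and 338), and Lamc3 in pericyte-like cells at 87.2 CPM (57.9, 85.7 and 105). Lamb1, the beta-1 chain that can take the place of Lamb2 in a laminin, had its top level in Schwann cell-like cells, 241 CPM (207, 230 and 319), and reached 177 CPM in lymphatic endothelium (152, 187 and 226). It was 1.61 CPM in smooth muscle cell-like cells (0.66, 1.57 and 3.25), less than the macrophage-like 3.41 CPM. Lamb2 stood at 533 CPM in those smooth muscle cell-like cells and at 104 CPM in the lymphatic ones. Lamb3 was highest in epithelial cell-like cells at 66.3 CPM, against 48.3 CPM in B cell-like cells, which served as background. It was highest there in 1 of the 2 libraries with enough epithelial cell-like cells.

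**Figure D4:**
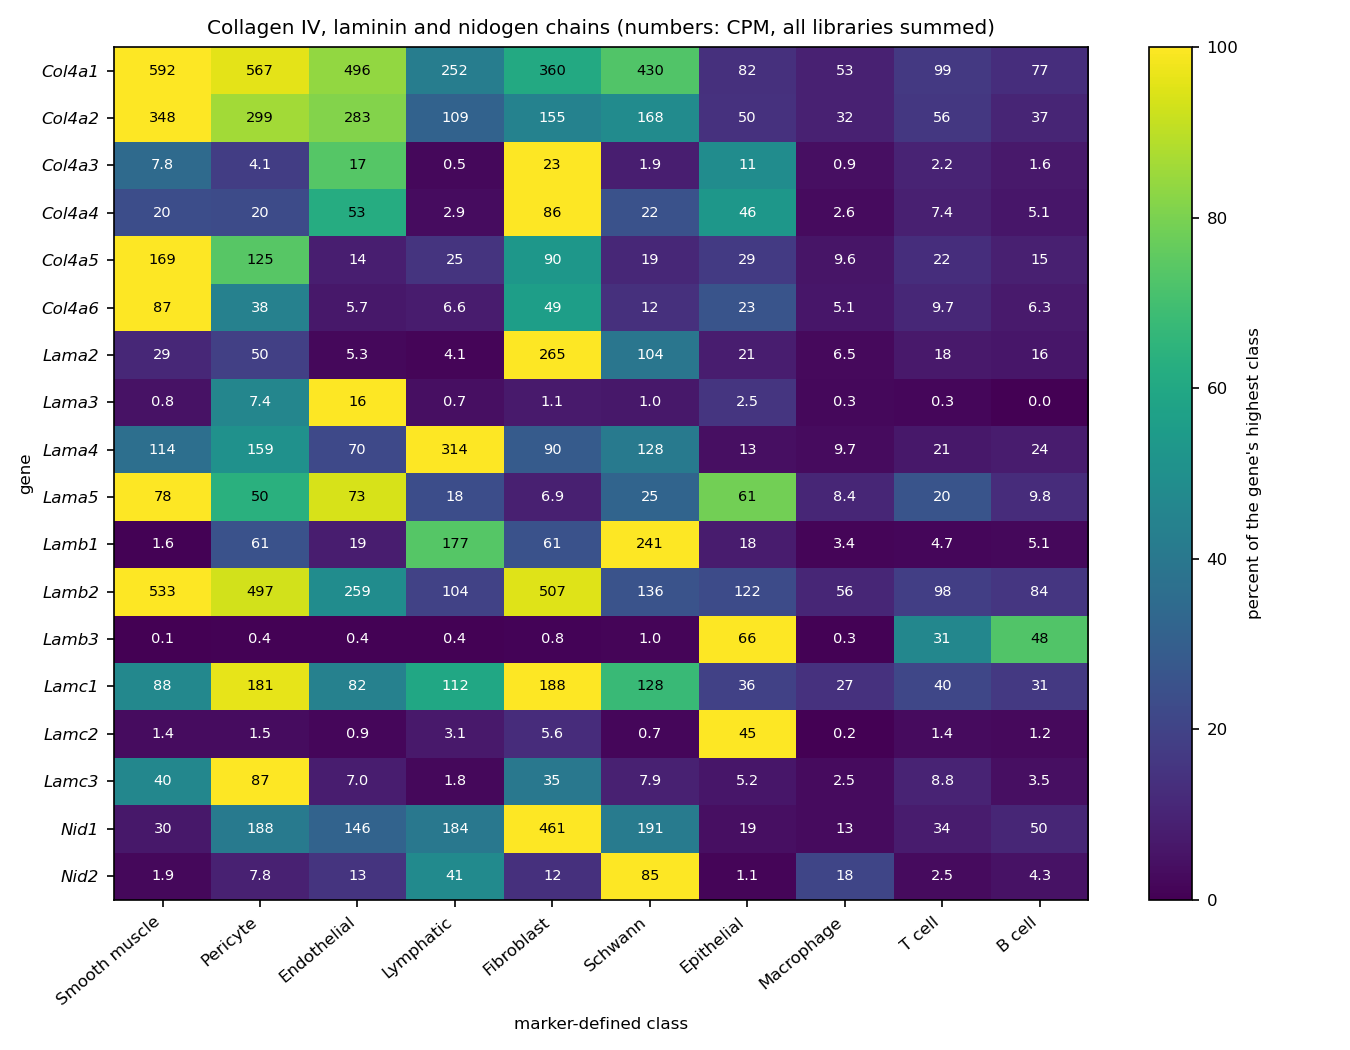
Collagen IV, laminin and nidogen genes (rows) in the 10 named classes (columns). Numbers are CPM with all libraries summed, and colour is the percent of the gene's highest class. Lamb1 is near 0 in smooth muscle cell-like cells (1.6 CPM) where Lamb2 is at 533 CPM, and Nid1 and Lama2 peak in fibroblast-like cells.

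A further list of 60 genes was counted by the same rule. Beside other basement membrane genes it held 11 genes of collagen folding, secretion and cross-linking, 13 receptors and 7 proteases. Of the 60, 49 reached 50 CPM in a class and 15 led, against the 23.3% of all genes. Among linkers and other matrix proteins 5 of 12 led, with Smoc2 at 1012 CPM in fibroblast-like cells and Npnt, the nephronectin gene, at 835 CPM in smooth muscle cell-like cells. Sparc, whose product binds collagen IV, stood at 4803 CPM in fibroblast-like cells without leading, since Schwann cell-like cells held 4573 CPM. Tinagl1 did not lead either, with 712 CPM in endothelial cell-like and 632 CPM in pericyte-like cells. Among genes for collagen folding, secretion and cross-linking 1 of 11 led, the collagen chaperone Serpinh1, at 1463 CPM in fibroblast-like against 641 CPM in smooth muscle cell-like cells. The prolyl hydroxylase subunits P4hb and P4ha1 were highest in fibroblast-like cells too, at 385 and 182 CPM, without leading. For P4ha1 this held in 3 of 6 libraries only, and Schwann cell-like cells held 170 CPM.

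Among receptors 2 of 12 led, both in Schwann cell-like cells, namely the laminin receptors Dag1 (dystroglycan) at 543 CPM and Itgb4 at 273 CPM. Itgb1, the integrin subunit shared by most laminin and collagen receptors, was highest in smooth muscle cell-like cells at 1332 CPM against 1021 CPM in pericyte-like cells, and Sdc4 in Schwann cell-like cells at 1106 CPM. Among proteases 5 of 7 led. Receptors and proteases are small lists, and 23.3% of all genes led in some class. Ctsl stood at 1662 CPM in fibroblast-like cells and Ctss at 979 CPM in macrophage-like cells. Htra1 at 455 CPM in smooth muscle cell-like cells and Mmp14 at 113 CPM in fibroblast-like cells did not lead.

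Libraries were also compared inside a class. In smooth muscle cell-like cells 0 of 10 members had a highest library of at least 2 times the lowest, where 7.10% of 10906 genes with at least 50 UMIs in each library did. The ratios ran from 1.19 for Hspg2 to 1.62 for Nid1, with a median of 1.33 over all these genes. Nid1 was wider than 82.1% and Lama5, at 1.55, than 77.6% of them. Nid1 was lowest in library 3 and highest in library 4, and cluster 7, where Nid1 was higher, made up 5.0% of the class in library 3 and 36.9% in library 4. Within cluster 0 alone Nid1 ran from 20.2 to 29.1 CPM. Whether the mix of clusters sets the spread was not tested.

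In endothelial cell-like cells the ratio was 1.77 for Col4a2, 1.76 for Col15a1 and 1.64 for Col4a1, wider than 90.6%, 90.3% and 84.2% of genes, whose median was 1.37. Of the members, 0 of 10 reached 2, where 4.31% of 8372 genes did. Col4a1 and Col4a2 were lowest in library 5, where cluster 4 made up 20.2% of the class, and highest in library 4, where it made up 45.9%. Whether the mix of clusters sets this spread was not tested either. In fibroblast-like cells the widest ratio was 1.79, for Lama5 at its background level, and 0 of 10 reached 2, where 5.38% of 10400 genes did. Nid1 stood at 1.43. None of these spreads can be read as an effect of genotype, since the genotype of each library is unknown here.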

How the data were processed

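The authors deposited a matrix of whole-number UMI counts per gene and barcode, written by cellranger-6.1.2 per the file headers. Per the submitters' processing notes, the tools were bcl2fastq 5.01, Cell Ranger 3.1.0 and Seurat 3.1.1, and the build was GRCm38. No source used here says whether library depths were equalised. GENCODE M21 held each of the 55450 gene identifiers.

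A cell needed 500 genes or more and a mitochondrial share of 20% or less, and Scrublet doublets were dropped (scanpy 1.11.5, scikit-learn 1.9.0, scipy 1.17.1, pandas 2.3.3 and numpy 2.4.6 in Python 3.11.15, figures with matplotlib 3.10.9). Counts were scaled to 10000 per cell and logged. The 2000 variable genes left out the members, the further list of genes, and mitochondrial and ribosomal genes. They gave 30 principal components, 20 neighbours and Leiden clusters (leidenalg 0.10.2, resolution 0.5), without batch integration. This gave 20 clusters.

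Each cluster was named after the marker list whose mean log2 ratio over the median cluster (5 CPM added) was greatest, if 3 markers reached 10 CPM and 2 times that median. The name was refused for a second list within 0.3, leading genes of another list, a depth under 1/3 of its libraries' median without own markers among 10 leading genes, or under 50% of cells with 2 markers. The last limit, and the need for at least 2 foreign markers among the leading genes, were set after the clusters had been seen. A total of 3 clusters (3805 cells) stayed unnamed.

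Counts were summed per class and library. Libraries match no sample label, so knockout against control was not compared and no p-value is given. The 95% intervals (exact Poisson for sums, Clopper-Pearson for shares) cover counting error only. Size rules were tried on simulated counts with counting error only and no differences between libraries, so false calls from such differences could not appear. Of 50 genes raised in smooth muscle cell-like cells 3, 4 or 8 times, 44, 40 and 47 led there. Of 50 raised in cluster 7, 41, 46 and 48 were called. At 1.5 times 0 of 50 were called by either rule, as were 0 of 6379 unchanged genes. The members and lists were chosen with earlier results of these data known. Named genes are all members, per role the 2 leading and 2 other further genes of highest CPM, and the 3 genes most like each member. Alternatives changed the factor, cell filters, doublets, resolution, weighting, depth, smallest class and libraries. No source used here says whether strand was used in counting, so reads in the 22 bases shared by Col4a1 and Col4a2 cannot be told apart without it. Nid1 shares 143 exonic bases with the antisense gene Gm48682 (67 UMIs), and Col15a1 14 bases with Gm12426 (1 UMI).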

Additional observations from a re-analysis of the deposited data

How the results depend on the processing

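The count of members that led was 2, and 4 at a factor of 1.5 and 0 at a factor of 4. Leaving out each library gave 2 to 3. The further genes that led were 15, and 6 at a factor of 4 (13 to 16 with a library left out). At a factor of 4, 0 members differed between smooth muscle cell-like clusters, 3 between endothelial cell-like and 1 between fibroblast-like clusters. The main counts were 3, 7 and 7 (3 to 3, 5 to 7 and 4 to 7 with a library left out). The fibroblast-like member at a factor of 4 was Nid1. It rested on cluster 19, of which 193 of 194 cells came from library 2. The endothelial count rose to 9 with a minimum of 1000 genes per cell, at a resolution of 1.0 and at a factor of 1.5. The smooth muscle count rose to 4 with that minimum, at a factor of 1.5 and with the low-depth cluster added, an alternative chosen after seeing the data. The fibroblast-like count was 3 at a minimum of 1000 genes per cell, 4 at a minimum of 200 genes and 4 when clusters under 200 cells, an alternative added after seeing the data, were not compared. Members with a library ratio of at least 2 in smooth muscle cell-like cells were 0, with 2 at a factor of 1.5 and 1 for the mean of per-cell CPM, and 0 with any library left out. Col18a1 and Nid1 led under 18 of 19 alternatives, all but the factor of 4. Lama4 led under 8 and Col15a1 under 3. Under 4 of those 8 for Lama4 (minimum of 1000 or of 200 genes, at most 10% mitochondrial, doublets kept) no cluster was named pericyte-like, so its next class was another one. Of 144 ratios between a member's highest classes under alternatives, 112 stayed within the counting error of the summed UMIs and 32 moved by more. The spread between libraries was not part of that limit. The order turned for Col4a1 (smooth muscle cell-like over pericyte-like) under 3 and for Lamc1 (fibroblast-like over pericyte-like) under 4. The median over libraries was not run for the spread between them, which has no such value. The cause of these changes was not tested. Shares over all genes were computed at the main settings, and for fibroblast-like cells also without clusters under 200 cells. The counts under the other alternatives have no such share beside them, so a rise or fall may be shared by all genes. Classes of under 20 cells in a library give no value for it, which limits epithelial cell-like and B cell-like cells to 2 libraries. No paired analysis was possible because barcodes carry no map to the numbered samples.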

Other observations

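An unnamed cluster of 1650 cells with a median depth of 1291 UMIs was kept out of the classes. All 9 smooth muscle markers were present there at a summed 22205 CPM. Col18a1 stood at 1319 CPM (libraries 1108, 1264 and 1568 as lowest, median and highest), Col4a1 at 721 CPM (587, 733 and 787) and Lama5 at 224 CPM (190, 222 and 394). In smooth muscle cell-like cells Col18a1 was 969, Col4a1 592 and Lama5 78.1 CPM. Nid1 was 33.3 CPM in the unnamed cluster, near the 29.8 CPM of smooth muscle cell-like cells.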
